A study of Mus musculus with 6 samples.

Results

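The epithelial transcription factor genes described here, 8 in number, were read on 6 Affymetrix gene arrays of mouse keratinocytes, the cells that build the epidermis. They are Grhl1, Grhl2 and Grhl3 of the Grainyhead-like family, Klf4 and Klf5 of the Krüppel-like family, and Elf3, Ehf and Elf5 of the Ets family. A gene counted when a probe set carried its symbol alone, and of several such probe sets the brightest was to be used. Each of the 8 genes had exactly 1, so all 8 of 8 were measured, among 19938 named genes in all.

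The arrays form 3 groups of 2. The arrays labelled Ovol1/2 DKO, called Ovol1/2 DKO here, came from Ovol2flox/-;K14-Cre; Ovol1-/- mice, which lack Ovol1, carry a germline null copy of Ovol2 and lose the other copy where the keratin 14 promoter drives Cre. The arrays labelled Ovol1 KO came from Ovol1-/- mice, and control arrays from mice that were Ovol2flox/+; Ovol1+/- or Ovol2flox/+;K14-Cre, so that controls of the first kind carried 1 null copy of Ovol1, and those of the second carried Cre and 1 floxed copy of Ovol2. All were C57BL/6 embryos at E18.5 labelled female, from litters caged together. Each array pooled 2 mice, and keratinocytes spent 2 to 5 days in culture with no calcium added, calcium being their cue to differentiate. Which day each array had is not given in the sources used here. Levels are given as log2(intensity + 16) with 2 arrays per group, the SE is that of the limma fit, and differences on this scale understate the change of dim genes. Levels are compared between arrays for the same gene and not between genes.

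Grainyhead-like factors bind the regulatory DNA of junction and barrier genes, and in mice Grhl3 is needed to form the skin barrier. Krüppel-like factors are zinc finger proteins, of which Klf4 is needed for the mouse skin barrier and Klf5 is found in dividing epithelial cells. Elf3, Ehf and Elf5 are the epithelium-specific branch of the Ets family. Ovol1 and Ovol2 are zinc finger repressors, and in epithelia they are known to hold down Zeb1, a repressor of epithelial genes.

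Some arrays went against their labels. Ovol1 stood at 5.96 and 6.22 in Ovol1/2 DKO, 10.75 and 9.80 under the Ovol1 KO label and 9.64 and 9.95 in control, so the Ovol1 signal went with the Ovol1 deletion that the Ovol1/2 DKO label states and against the Ovol1 KO label. Ovol2 read 7.63 and 7.50 in Ovol1/2 DKO, 7.88 and 8.38 under the Ovol1 KO label and 8.37 and 6.97 in control. Its signal therefore did not bear out the Ovol2 deletion that the same label states (-0.10 against control, SE 0.45, not passing, and 0.60 without control replicate 1). Whether these probe sets cover the deleted exons was not analysed here, and one that does not cover them checks nothing. Xist, an RNA of female cells, read 4.54 in the first array labelled Ovol1 KO and 4.43 in the first control array, against 10.99 to 11.43 on the other arrays, and the Y-linked Eif2s3y read 13.80 in replicate 1 labelled Ovol1 KO. Keratinocyte identity was borne out: the 12 markers, among them Krt5, Krt14 and Trp63, averaged 11.78 and 11.91 in Ovol1/2 DKO, 11.38 and 11.41 under the Ovol1 KO label and 11.63 and 11.48 in control. A level of 6.20, the highest array median of the probe sets with no gene name, is taken as near background.

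In Ovol1/2 DKO against control, 4 of the 8 factors fell and none rose. Ehf, Elf3, Grhl3 and Grhl1 passed limma at an adjusted p under 0.05, while Grhl2, Klf4, Klf5 and Elf5 did not. Of all 19938 genes, 2.02% passed, 1.4% in the lower direction and 0.622% in the higher. A limma unadjusted p under 0.05 was seen for 6 of the 8 and for 2071 of all genes. The median difference of the 8 was -2.51, beside 0.03 over all genes. In 7 of the 8, all but Klf5, both Ovol1/2 DKO arrays lay below both control arrays, as they did for 18.1% of all genes, while for none of the 8 and 21.1% of all genes they lay above. Leaving out both arrays that lacked Xist signal leaves 1 control array, and the spread then comes from the Ovol1/2 DKO arrays alone. The differences were then -5.34 (Ehf), -4.63 (Elf3), -3.87 (Grhl1) and -3.68 (Grhl3). For the factors that did not pass above they were -1.65 (Elf5), -1.06 (Grhl2), -0.86 (Klf4) and 0.19 (Klf5). With bulk cultures, fewer cells that express a gene and less RNA per cell cannot be told apart.

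**Figure D1:**
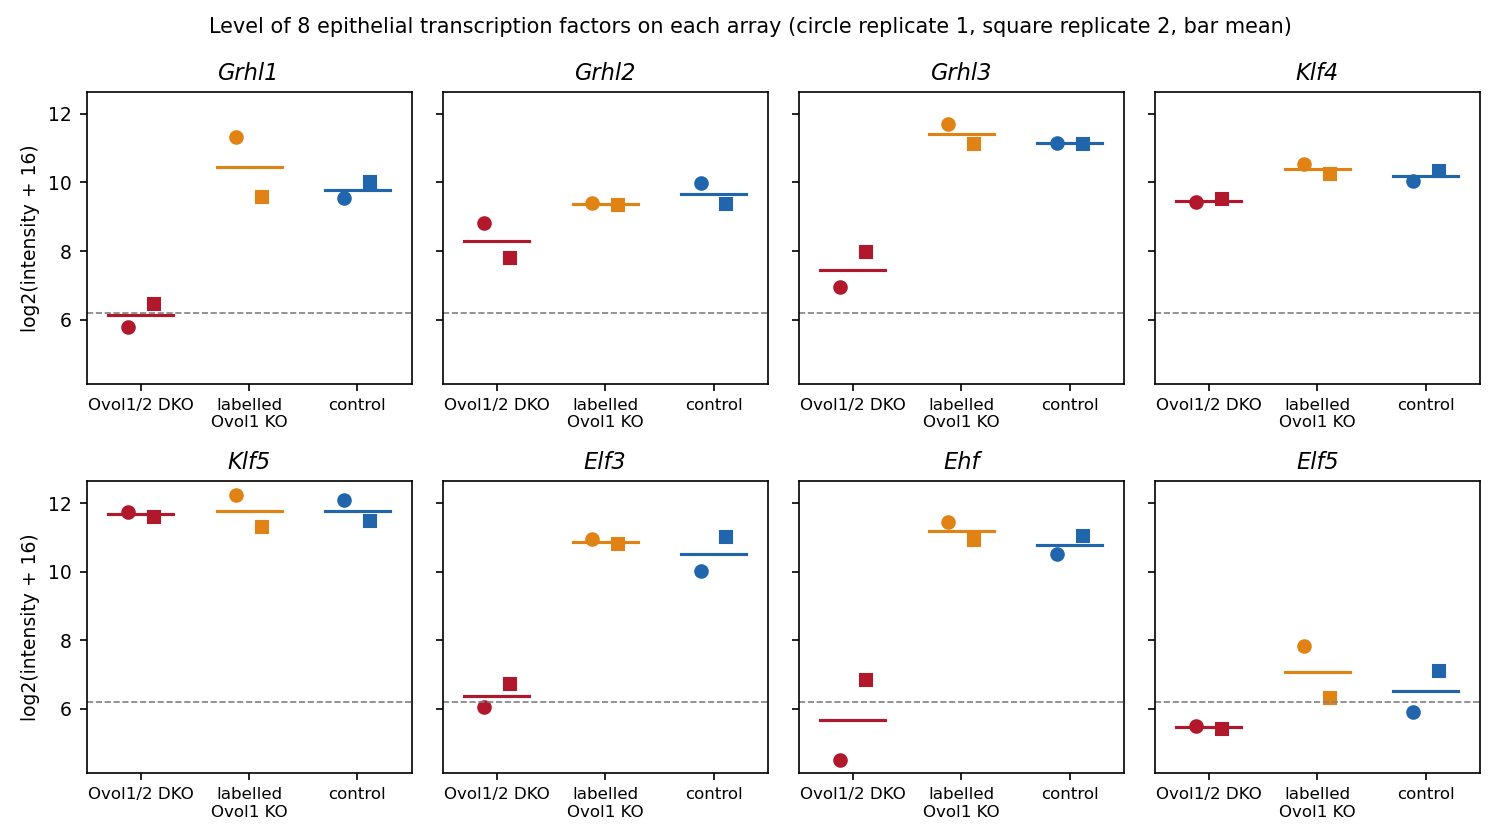
Level of each factor on each array, as log2(intensity + 16), with Ovol1/2 DKO left, the arrays labelled Ovol1 KO in the middle and control right. Circles are replicate 1, squares replicate 2, bars group means of 2 arrays, and the dashed line is the near-background level of 6.20, around which Ehf, Elf3 and Grhl1 lie in Ovol1/2 DKO, while Klf5 stays between 11.31 and 12.25 on all 6 arrays.

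Of the Grainyhead-like factors, Grhl3 and Grhl1 fell and Grhl2 did not pass. Grhl3 read 6.94 and 7.98 in Ovol1/2 DKO, 11.70 and 11.13 under the Ovol1 KO label, and 11.15 and 11.13 in control. The 2 control arrays lay 0.015 apart, and both Ovol1/2 DKO arrays were more than 3 units lower. Grhl3 fell 12.8-fold against control (log2 difference -3.68, SE 0.37, limma adjusted p = 0.00903), and the call held in all 17 settings tried, with differences of -4.20 to -3.16.

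Grhl1, which in mice supports desmosomal cadherin expression and hair anchorage, read 5.80 and 6.46 in Ovol1/2 DKO, 11.32 and 9.56 under the Ovol1 KO label, and 9.55 and 10.00 in control. It fell to the near-background level in Ovol1/2 DKO (log2 difference -3.65, SE 0.56, limma adjusted p = 0.0300). The limma call was lost without control replicate 2 (-3.43, adjusted p = 0.126), without Ovol1/2 DKO replicate 1 (-3.32, adjusted p = 0.145) and without Ovol1/2 DKO replicate 2 (-3.98, adjusted p = 0.110). The arrays labelled Ovol1 KO lay 1.76 apart for this gene, the widest gap of any factor in that group.

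Grhl2, needed in mice for neural tube closure and for junction gene expression, read 8.83 and 7.79 in Ovol1/2 DKO, 9.40 and 9.36 under the Ovol1 KO label, and 9.99 and 9.37 in control. Both Ovol1/2 DKO arrays were the lowest of the 6, and the gap between them of 1.05 was nearly as large as the group difference of -1.37 (SE 0.38, 95% interval -2.28 to -0.46). It did not pass (limma adjusted p = 0.190), and it was -1.89 without Ovol1/2 DKO replicate 1 and -0.85 without Ovol1/2 DKO replicate 2. Whether Grhl2 moved less than Grhl1 and Grhl3 was not tested.

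Among the other genes of the Grainyhead and CP2 family, Tfcp2l1, a relative known from kidney collecting ducts and pluripotent cells, fell to 6.62 and 6.06 in Ovol1/2 DKO, against 9.38 and 10.06 in control (log2 difference -3.38, SE 0.47, limma adjusted p = 0.0222). The call was lost without control replicate 2 or either Ovol1/2 DKO array, with differences of -3.73 to -3.04 when any 1 array was left out. Tfcp2 (0.37) and Ubp1 (0.23), the remaining 2 of these 3 relatives, did not pass.

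Promoter windows of 5 of the 8 genes were in the RefSeq table used here (250 bases before to 50 after the start, mouse build GRCm38.p6). Grhl2, Klf5 and Ehf had no window there, so these 3, with the fallen Ehf among them, were not searched. Of the genes with windows, Grhl3, Elf3 and Elf5 share a motif, and a window of each is shown. That of Grhl1, a fallen factor whose windows lack the motif, is shown as well. Capitals mark CAGGTG or its reverse complement CACCTG, the E-box letters that Zeb and Snail repressors are known to bind.
Grhl3 (chr4:135573583-135573882, minus strand): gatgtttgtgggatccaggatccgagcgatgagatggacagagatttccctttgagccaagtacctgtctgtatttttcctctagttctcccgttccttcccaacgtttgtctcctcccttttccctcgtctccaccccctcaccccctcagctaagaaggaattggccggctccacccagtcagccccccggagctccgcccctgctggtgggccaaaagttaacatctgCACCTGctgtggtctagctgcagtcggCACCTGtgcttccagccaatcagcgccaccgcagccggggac
Elf3 (chr1:135258423-135258722, minus strand): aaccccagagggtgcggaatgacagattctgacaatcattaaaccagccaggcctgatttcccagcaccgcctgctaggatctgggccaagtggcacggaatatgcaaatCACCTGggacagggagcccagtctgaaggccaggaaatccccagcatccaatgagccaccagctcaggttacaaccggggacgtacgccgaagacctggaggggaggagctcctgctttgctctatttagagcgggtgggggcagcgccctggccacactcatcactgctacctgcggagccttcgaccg
Elf5 (chr2:103411848-103412147, plus strand): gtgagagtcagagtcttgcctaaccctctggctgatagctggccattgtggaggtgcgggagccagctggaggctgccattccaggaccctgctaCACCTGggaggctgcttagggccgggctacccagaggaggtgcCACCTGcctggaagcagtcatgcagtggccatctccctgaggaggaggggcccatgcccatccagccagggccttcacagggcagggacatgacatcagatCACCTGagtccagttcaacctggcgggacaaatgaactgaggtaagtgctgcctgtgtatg
Grhl1 (chr12:24572037-24572336, plus strand): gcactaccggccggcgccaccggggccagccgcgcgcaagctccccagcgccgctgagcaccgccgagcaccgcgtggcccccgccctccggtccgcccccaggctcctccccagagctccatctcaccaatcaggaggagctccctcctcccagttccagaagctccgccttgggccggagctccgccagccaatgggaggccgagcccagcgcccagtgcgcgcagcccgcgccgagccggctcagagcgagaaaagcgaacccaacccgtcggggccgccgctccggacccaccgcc
The Grhl3 window holds the letters at -19 and at 9 from the start, the Elf3 window at -140, and the Elf5 window at -155, -112 and -11. A second Elf5 window (chr2:103423818-103424117, plus strand) holds them at 22. The window of Klf4 and both windows of Grhl1 hold none. Of all 32851 windows of this length, 20.2% hold CAGGTG on either strand. CCGTTA, the core that Ovol factors are known to bind, is in none of the 7 windows of these 5 genes and in 2.76% of all windows, and likewise the Grainyhead letters AACNGGTT are in none and in 2.09% of all. The Ets letters CCGGAA are in none of the 7 and in 14.9% of all windows. The Krüppel-like letters CACCC are in the windows of Grhl3 and Elf3, in the second window of Grhl1 and in the second of Elf5, and in 57.5% of all. TATAAA, the TATA box letters, are in none of the 7 and in 13.6% of all. All 6 motifs were searched on both strands, and no match of one overlaps a match of another in these windows. A match describes letters and not a bound site.

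Of the epithelium-specific Ets factors, Ehf and Elf3 fell and Elf5 did not pass. Ehf, a factor of epithelial differentiation, read 4.53 and 6.85 in Ovol1/2 DKO, 11.46 and 10.92 under the Ovol1 KO label, and 10.52 and 11.03 in control. As intensity these are 7.03 and 99.2 in Ovol1/2 DKO, 2794 and 1921 under the Ovol1 KO label and 1454 and 2077 in control. Both Ovol1/2 DKO arrays were far below the rest, and they lay 2.32 apart from each other. Ehf fell by 5.09 on the log2 scale (SE 0.69, limma adjusted p = 0.0214). The limma call was lost without control replicate 2 (-4.83, adjusted p = 0.0859), and the difference was -3.93 without Ovol1/2 DKO replicate 1 and -6.25 without Ovol1/2 DKO replicate 2.

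Elf3, which in mice is needed for intestinal epithelial differentiation, read 6.04 and 6.73 in Ovol1/2 DKO, 10.95 and 10.80 under the Ovol1 KO label, and 10.03 and 11.01 in control. No Ovol1/2 DKO array came within 3 units of any array of the other groups. Elf3 fell to around the near-background level in Ovol1/2 DKO (log2 difference -4.14, SE 0.38, limma adjusted p = 0.00755), and the call held in all 17 settings tried, from -4.63 to -3.52.

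Elf5, known for its part in mouse mammary gland and trophoblast development, was under or close to the near-background level on 4 of the 6 arrays. It read 5.51 and 5.43 in Ovol1/2 DKO, 7.82 and 6.32 under the Ovol1 KO label, and 5.92 and 7.11 in control. The Ovol1/2 DKO arrays were the lowest and lay 0.08 apart, while the control arrays lay 1.19 apart and the arrays labelled Ovol1 KO 1.51 apart. The difference of -1.05 (SE 0.56, 95% interval -2.38 to 0.28) did not pass (limma adjusted p = 0.678). Without both arrays that lacked Xist signal it was -1.65, in a fit that leaves 1 control array and takes its spread from the Ovol1/2 DKO arrays alone. Over single arrays left out it ran from -1.65 without control replicate 1 to -0.45 without control replicate 2, and passed in none of these fits.

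Ehf and Elf5 neighbour each other on chromosome 2 in the RefSeq table, without another protein-coding gene between them. None of the 22 other Ets genes measured passed limma in Ovol1/2 DKO against control, and 1 had an unadjusted p under 0.05. These 22 had differences of -0.48 to 0.59 with a median of 0.18, beside 0.03 over all genes. Elk1 (0.48, SE 0.19) and Etv3 (-0.44, SE 0.20) had the smallest p and did not pass (limma adjusted p = 0.419 and 0.572).

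Neither Krüppel-like factor passed. Klf4 read 9.42 and 9.53 in Ovol1/2 DKO, 10.53 and 10.23 under the Ovol1 KO label, and 10.04 and 10.33 in control. Its Ovol1/2 DKO arrays lay 0.10 apart and below all 4 others. The difference of -0.71 from control (SE 0.22, 95% interval -1.23 to -0.20) did not pass (limma adjusted p = 0.238).

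Klf5 read 11.75 and 11.60 in Ovol1/2 DKO, 12.25 and 11.31 under the Ovol1 KO label, and 12.09 and 11.48 in control. Here the groups overlapped, with both Ovol1/2 DKO arrays inside the range of the other 2 groups. The difference from control was -0.11 (SE 0.36, 95% interval -0.96 to 0.75, limma unadjusted p = 0.769), and it did not pass after adjustment. Without control replicate 1 its sign turned (0.19), again without passing.

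None of the 15 other Krüppel-like genes passed limma, and 2 had an unadjusted p under 0.05. Their differences ran from -0.72 to 0.70 with a median of 0.04. The 2 smallest p belonged to Klf13 (0.70, SE 0.19, limma adjusted p = 0.183) and Klf6 (-0.61, SE 0.25, limma adjusted p = 0.475).

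**Figure D2:**
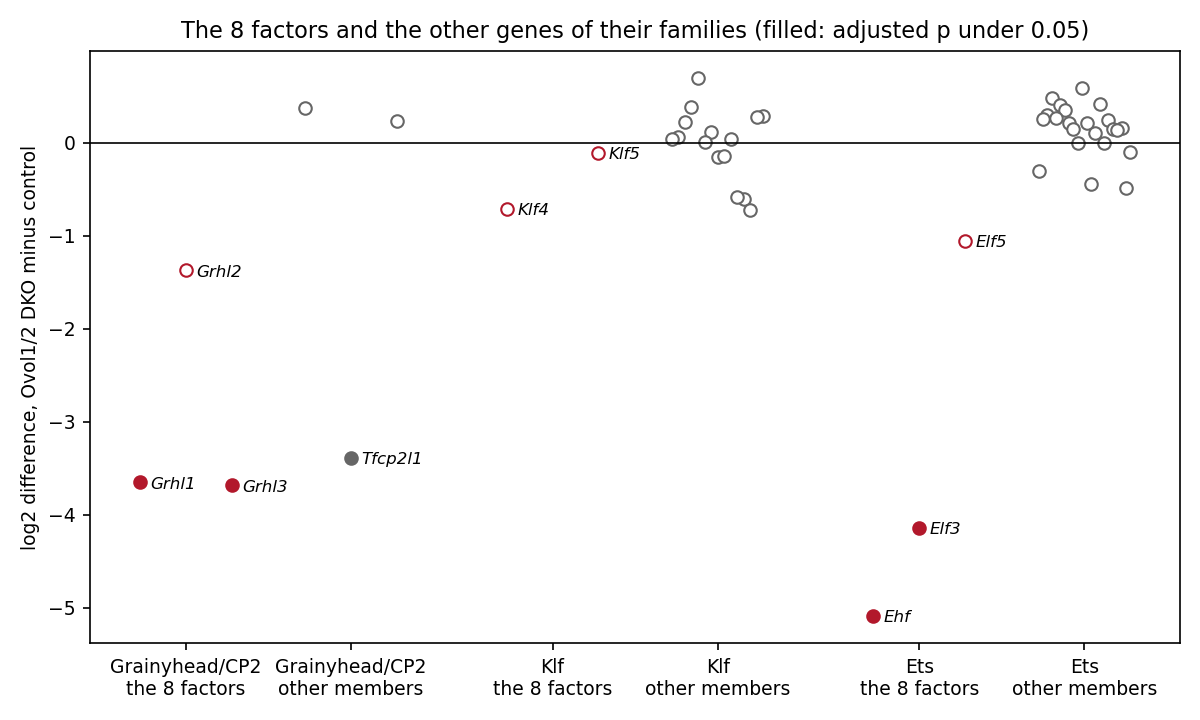
Log2 difference, Ovol1/2 DKO minus control, for the 8 factors (red) and the other measured genes of each family (grey), with each point a gene and filled points at an adjusted p under 0.05. Filled are Grhl1, Grhl3, Elf3 and Ehf and, among the relatives, Tfcp2l1, while the other Klf and Ets genes lie between -0.72 and 0.70.

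Ovol1/2 DKO was also set against the arrays labelled Ovol1 KO, a comparison that shares its Ovol1/2 DKO arrays with the one above. Lower here were Ehf (-5.50, SE 0.69, limma adjusted p = 0.0130), Elf3 (-4.49, SE 0.38, limma adjusted p = 0.00504), Grhl1 (-4.32, SE 0.56, limma adjusted p = 0.0139) and Grhl3 (-3.96, SE 0.37, limma adjusted p = 0.00674). So 4 of 8 passed in the lower direction and none in the higher, beside 1.91% and 1.24% of all genes, 3.15% together. A limma unadjusted p under 0.05 was seen for 7 of the 8 and for 2802 of all 19938 genes. Elf5 (-1.60, SE 0.56), Grhl2 (-1.07, SE 0.38), Klf4 (-0.91, SE 0.22) and Klf5 (-0.11, SE 0.36) did not pass, with limma adjusted p values of 0.248, 0.259, 0.0947 and 0.940. The limma call of Ehf was lost without replicate 1 labelled Ovol1 KO (-5.23, adjusted p = 0.0821). That of Grhl1 was lost without Ovol1/2 DKO replicate 1 (-3.99, adjusted p = 0.0743) or replicate 2 (-4.65, adjusted p = 0.0558). Without both arrays that lacked Xist signal, which leaves 1 array labelled Ovol1 KO, the 4 that passed differed by -5.23 (Ehf) to -3.44 (Grhl1). None of the 15 other Krüppel-like and none of the 22 other Ets genes passed limma here, with 4 and 3 at an unadjusted p under 0.05.

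When the arrays labelled Ovol1 KO were set against control, no factor passed limma and none had an unadjusted p under 0.05, beside 0% of all genes passing and 153 genes with an unadjusted p under 0.05. All 8 factors overlapped between these groups, whereas for 10.3% of all genes both arrays labelled Ovol1 KO lay below both control arrays and for 8.82% above. The differences ran from -0.30 (Grhl2, SE 0.38) to 0.67 (Grhl1, SE 0.56), with intervals such as -0.55 to 1.25 for Elf3 and -1.24 to 2.06 for Ehf. Control arrays enter both this comparison and that of Ovol1/2 DKO with control.

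**Figure D3:**
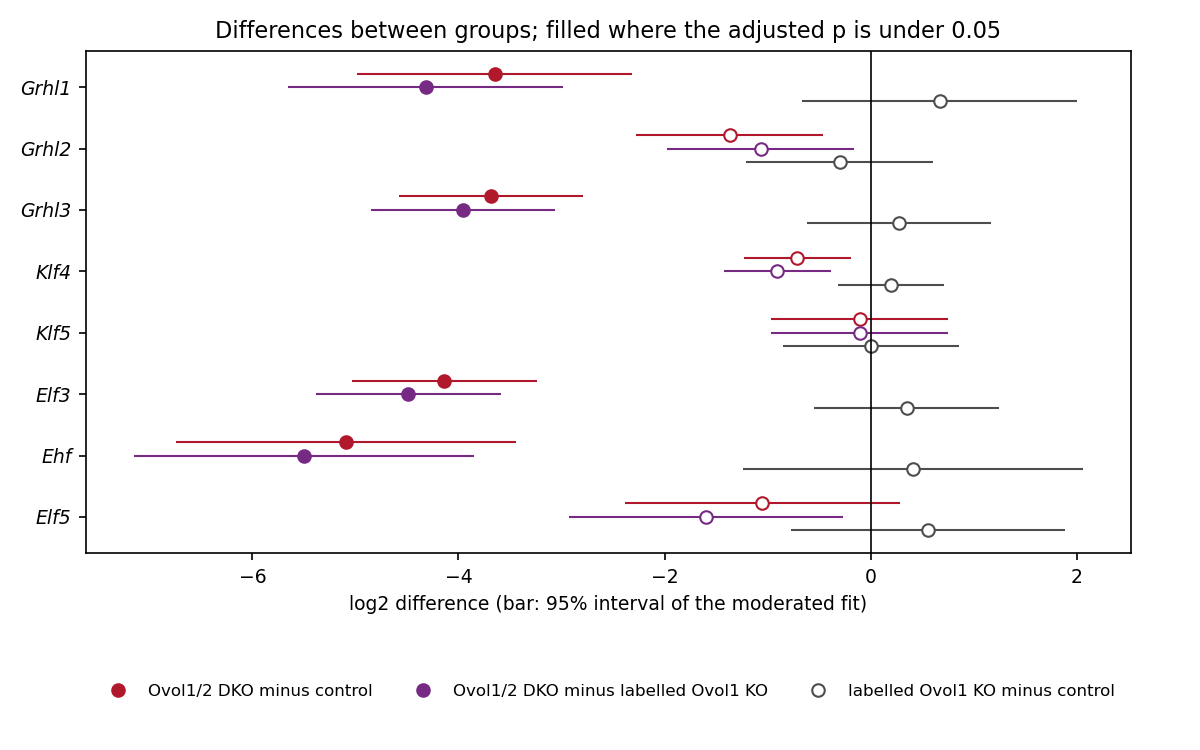
Log2 differences of the 8 factors in the 3 comparisons, with 95% intervals of the moderated fit and filled points at an adjusted p under 0.05. Intervals of Grhl1, Grhl3, Elf3 and Ehf lie below 0 in both comparisons that involve Ovol1/2 DKO. So do those of Grhl2 and Klf4, which did not pass. The interval of Elf5 lies below 0 only against the arrays labelled Ovol1 KO, and that of Klf5 holds 0 in both. All 8 intervals of the arrays labelled Ovol1 KO minus control hold 0.

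The factors also varied within groups. Replicate 1 labelled Ovol1 KO was the highest of the 6 arrays for 6 of the 8 factors, namely Grhl1, Grhl3, Klf4, Klf5, Ehf and Elf5. The markers of suprabasal, differentiating keratinocytes were also highest on that array: their mean level was 6.98 and 7.14 in Ovol1/2 DKO, 10.10 and 8.51 under the Ovol1 KO label, and 8.69 and 9.25 in control. Of the 12 measured, 2 fell in Ovol1/2 DKO against control, the cornified envelope enzyme Tgm1 (-5.00, SE 0.41, limma adjusted p = 0.00551) and the protease inhibitor Spink5 (-5.47, SE 0.66, limma adjusted p = 0.0158), and the median of the 12 was -1.24. Spink5 lost the call without control replicate 2 or Ovol1/2 DKO replicate 1, and leaving out any 1 array gave -6.23 to -4.71. The mean of the suprabasal markers was thus low on the same arrays as Ehf, Elf3, Grhl3 and Grhl1, and the part of differentiation in the result was not tested. Of the 12 keratinocyte markers, only Dsg3, a basal desmosomal cadherin, passed, and it fell (-1.25, SE 0.21, limma adjusted p = 0.0402). That call was lost without any 1 array (-1.40 to -1.09). Most of the 12 were higher without passing, among them Krt15 (1.74, SE 0.50), Trp63 (0.93, SE 0.21) and Dst (0.88, SE 0.22). Besides Dsg3 only Perp was lower (-0.25, SE 0.21), and the median was 0.23. Against the arrays labelled Ovol1 KO, 2 of the 12 passed in the higher direction and 1 in the lower.

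**Figure D4:**
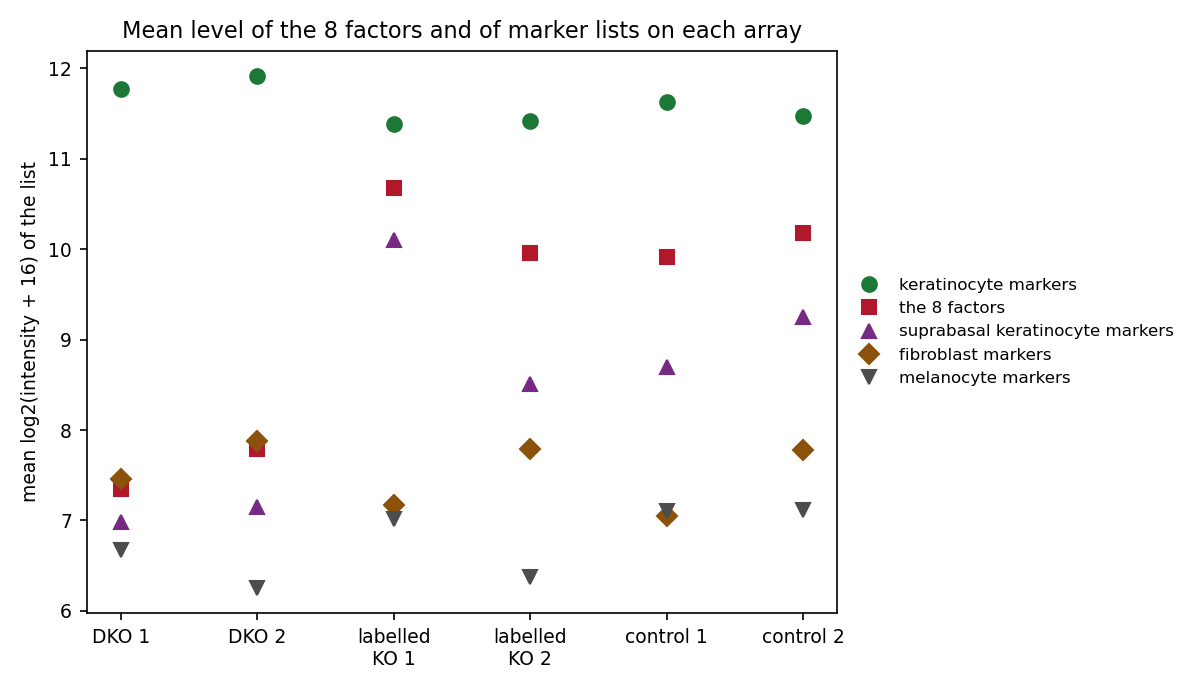
Mean log2(intensity + 16) of the 8 factors and of 4 marker lists on each array, with Ovol1/2 DKO left, the arrays labelled Ovol1 KO in the middle and control right; heights of different lists are not comparable. The 8 factors averaged 7.35 and 7.79 in Ovol1/2 DKO and 9.91 to 10.68 on the other 4 arrays, with the suprabasal markers low on the same 2 arrays and the keratinocyte markers highest there.

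Among markers of other cell types, 1 on the fibroblast list, Thy1, rose and 1 on the Merkel cell list, Krt8, fell. The other 11 and 6 genes of these lists did not pass. The 12 fibroblast markers averaged 7.45 and 7.88 in Ovol1/2 DKO, 7.18 and 7.78 under the Ovol1 KO label, and 7.05 and 7.77 in control, and only Lum was near background on every array. Thy1 had a difference of 1.67 (SE 0.22, limma adjusted p = 0.0187), a call that was lost without control replicate 2 or either Ovol1/2 DKO array (1.64 to 1.70 over single arrays left out). The 12 ran from -0.66 (Pdgfra) to 1.67, with a median of 0.07. The 9 melanocyte markers averaged 6.68 and 6.26 in Ovol1/2 DKO, 7.02 and 6.38 under the Ovol1 KO label, and 7.11 and 7.12 in control. None of the 9 passed limma in Ovol1/2 DKO against control, 3 had an unadjusted p under 0.05, Tyrp1 (-1.74) and Mitf (-0.95) had the smallest p, and Tyr was near background throughout. Without both arrays that lacked Xist signal, which leaves 1 control array, the differences were -1.79 for Tyrp1 and -1.20 for Mitf. Of 7 genes that mark Merkel cells Krt8, a simple-epithelium keratin, fell (-1.79, SE 0.28, limma adjusted p = 0.0316), a call lost without control replicate 2 or either Ovol1/2 DKO array (-2.01 to -1.57 over single arrays left out). Krt18 (-1.53, SE 0.32, limma adjusted p = 0.0813) did not pass. Nor did Isl1 (-0.36), Atoh1 (-0.13), Krt20 (-0.09), Piezo2 (-0.06) and Sox2 (0.09). Merkel cell markers averaged 7.38 and 7.47 in Ovol1/2 DKO, 7.72 and 8.27 under the Ovol1 KO label, and 7.93 and 8.03 in control. None of 9 endothelial and none of 9 leukocyte markers passed limma in Ovol1/2 DKO against control, with 2 and 0 at an unadjusted p under 0.05. The smallest p belonged to Kdr (-1.15) and Pecam1 (0.84), and to Cd207 (0.15) and Csf1r (-0.31). Kdr, an endothelial growth factor receptor, passed under the replicate block (limma adjusted p = 0.0363) and under quantile normalization (limma adjusted p = 0.0378). Its level was as low under the Ovol1 KO label (7.96 and 7.84) as in Ovol1/2 DKO (7.82 and 7.83), against 9.19 and 8.77 in control. The arrays labelled Ovol1 KO differed from control by -1.08 (SE 0.22) without passing. Pecam1, an endothelial adhesion molecule, was higher in Ovol1/2 DKO than under the Ovol1 KO label (1.28, SE 0.19, limma adjusted p = 0.0204), a call lost without replicate 1 labelled Ovol1 KO or either Ovol1/2 DKO array (1.21 to 1.35 over single arrays left out). The near-background genes on every array were Krt20 among the Merkel cell markers, Cdh5, Tek and Emcn among the endothelial ones and Cd207, Adgre1, Cd74 and Tyrobp among the leukocyte ones. Endothelial markers averaged 6.46 and 6.47 in Ovol1/2 DKO and 6.24 to 6.46 on the other 4 arrays, and leukocyte markers 6.25 and 6.23 in Ovol1/2 DKO and 6.13 to 6.59 on the others. The part of other cell types in the result was not tested.

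Genes earlier tied to these factors as targets were read next. Of 10 measured genes reported for Grainyhead-like factors, 4 fell and 1 rose in Ovol1/2 DKO against control. Tgm1 read 6.48 and 7.61 in Ovol1/2 DKO, against 11.74 and 12.35 in control. The tight junction claudin Cldn4 fell to 8.95 and 9.99 in Ovol1/2 DKO, against 12.91 and 12.87 in control (-3.42, SE 0.35, limma adjusted p = 0.00918). Zeb1, which GRHL2 is known to hold down in human cells, rose to 11.06 and 11.03 in Ovol1/2 DKO, against 6.06 and 6.13 in control (4.95, SE 0.21, limma adjusted p = 0.00257), and it read 5.88 and 6.29 under the Ovol1 KO label. The other 2 that fell were Cdh1, the epithelial cadherin, and Rab25, a GTPase of apical trafficking (-5.10, SE 0.80, limma adjusted p = 0.0327). The median of the 10 was -1.74. Rab25 lost the call when either control array or either array labelled Ovol1 KO was left out, and its difference ran from -6.50 to -3.70 over single arrays left out.

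Of 6 measured genes reported for Klf4 or Klf5, Cdh1 (-1.57, SE 0.24, limma adjusted p = 0.0292) and the simple keratin Krt19 (-2.86, SE 0.51, limma adjusted p = 0.0477) fell, and the median was 0.10. Cdh1 lost the call without either control or either Ovol1/2 DKO array (-1.77 to -1.36). Krt19 lost it without any 1 array but Ovol1/2 DKO replicate 2 (-3.62 to -2.09 over single arrays left out). Of 14 measured genes reported for Elf3, Ehf or Elf5, the prostaglandin synthase Ptgs2 (-1.89, SE 0.27, limma adjusted p = 0.0240) and Krt8 fell, none rose, and the median was -0.30. Ptgs2 lost the call without either control or either Ovol1/2 DKO array (-1.99 to -1.78). These lists are short and gather reports from several tissues, and the genes in them answer to other factors too.

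Of 24 other epidermal transcription factors measured, 4 fell and none rose. Zfp750, a factor of terminal differentiation, read 7.27 and 8.10 in Ovol1/2 DKO, 12.19 and 11.47 under the Ovol1 KO label, and 11.43 and 11.40 in control (-3.73, SE 0.35, limma adjusted p = 0.00840), and its call held in all 17 settings tried. The transcriptional repressor Prdm1 (-3.66, SE 0.56, limma adjusted p = 0.0307), the aryl hydrocarbon receptor Ahr (-1.59, SE 0.19, limma adjusted p = 0.0159) and the homeodomain-only protein gene Hopx (-4.25, SE 0.75, limma adjusted p = 0.0477) were the others, and the median of the 24 was 0.01. Leaving out single arrays gave -4.45 to -2.87 for Prdm1, which lost the call without control replicate 2, Ovol1/2 DKO replicate 1 or either array labelled Ovol1 KO. Ahr lost it without control replicate 2 or either Ovol1/2 DKO array (-1.70 to -1.48). Hopx lost it without any 1 array but Ovol1/2 DKO replicate 2 (-5.41 to -3.08 over single arrays left out).

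Of 10 repressors of the epithelial state, Zeb1 and Zeb2 rose and Foxc2 and Snai3 fell. Zeb2 read 7.94 and 8.36 in Ovol1/2 DKO, against 5.70 and 6.23 in control (2.19, SE 0.28, limma adjusted p = 0.0183). The Zeb2 call was lost without either Ovol1/2 DKO array, and differences ran from 1.92 to 2.45 over single arrays left out. Foxc2 fell by 3.23 (-3.23, SE 0.30, limma adjusted p = 0.00805) to a level near background. Snai3, a relative of Snail, had a difference of -3.34 (SE 0.54, limma adjusted p = 0.0360) and lost the call without control replicate 2 or either Ovol1/2 DKO array (-3.71 to -2.96).

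Patterns across the 6 arrays were compared after centring each gene on its own mean, as the root mean square of the log2 gaps. Grhl3 and Elf3 had the smallest gap of any pair among the factors, 0.40, followed by Grhl1 and Grhl3 at 0.42. Among 9683 other genes, Grhl3 was matched most closely by the uroplakin relative Upk3bl (0.093) and by Zfp750 (0.11). Elf3 was nearest to the non-muscle myosin Myh14 (0.096), the riboflavin transporter Slc52a3 (0.15) and the motor protein Myo5b (0.21). Ehf was nearest to Mal, a proteolipid of apical transport (0.23), to Rab25 (0.24) and to the envelope precursor Sprr1b (0.26). For Grhl1 these were Adgrf4 (0.13), Pof1b (0.19) and Mall (0.22). Grhl2 lay closest to the transporter Slc4a11 (0.14), the glycosyltransferase Galnt3 (0.16) and Nav3 (0.16). Tent5b (0.063), Sbno2 (0.067) and Niban2 (0.076) followed Klf4, Desi2 (0.052), Lrrc1 (0.055) and Mterf4 (0.058) followed Klf5, and Myl7 (0.12), Lgalsl (0.15) and Zfand6 (0.16) followed Elf5. Tmem30b, the third for Grhl3, stood at 0.14. These are descriptions over 6 arrays that share the same 3 groups.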

How the data were processed

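The deposited table holds one linear intensity per probe set and array. Per the submitters' processing notes it was made with Expression Console 1.1.1 from Affymetrix and with PLIER 2.0, which combines the probes of a set. How the authors corrected background, normalized or filtered is not given in the sources used here. Array medians ran from 103.3 to 109.8 over 35556 probe sets. Of these, 21789 had 1 gene symbol in the platform annotation, 1621 several and 12146 none. Current symbols came through Entrez identifiers from a RefSeq table of GRCm38.p6, used for names and neighbours, and 91 identifiers had no match. The brightest probe set per gene gave 19938 genes.

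Values were taken as log2(intensity + 16). One limma model over all 6 arrays (limma 3.58.1, R 4.3.3, lmFit and eBayes, 3 residual and 3.68 prior degrees of freedom) gave the 3 comparisons, with Benjamini-Hochberg adjustment over all genes. The fit was tested on simulated data. Precision is limited by the array number, and per the labels both arrays of each group are biological replicates. An exact test of 2 arrays against 2 could not pass.

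Factors, lists and tests were chosen with earlier results of these data known. Named were the 8 factors, Ovol1, Ovol2, per list up to 3 passing genes by smallest adjusted p (2 where none passed), and 3 genes of the most similar pattern per factor. Rab25, Hopx, Snai3, Il22ra1, Abtb2 and the markers named as examples or neighbours were chosen after their values were seen. Of the list symbols, 14 had no match and are not analysed here. Alternatives were a replicate block, leaving out arrays, quantile normalization, median centring, offsets of 1 and 64, a filter on dim genes, all probe sets, only the groups compared, an intensity trend and robust variance.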

Additional observations from a re-analysis of the deposited data

How the results depend on the processing

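In Ovol1/2 DKO minus control, 4 factors passed in the reported fit, and 2 to 4 when any 1 array was left out. With the replicate block 4 passed, as in the fit without it, and no factor's call changed, though the endothelial marker Kdr passed with it. Same-numbered arrays deviated together (r across genes 0.19 to 0.49), but each group has only 2 numbers and no label ties them, so the block was not used in the main results. With an offset of 64, 3 factors passed, Grhl1 being lost (-2.96, limma adjusted p = 0.122). Leaving out both arrays lacking Xist signal leaves 1 array each in control and under the Ovol1 KO label. Its spread comes from the Ovol1/2 DKO arrays alone. Over all genes 403 passed, with 597 under the replicate block, 99 without Ovol1/2 DKO replicate 2, 152 without control replicate 2, 109 without Ovol1/2 DKO replicate 1, 155 with an offset of 64 and 1395 without the arrays lacking Xist signal. Against the arrays labelled Ovol1 KO 628 passed, with 1022 under the replicate block, 135 without replicate 1 labelled Ovol1 KO, 182 and 154 without Ovol1/2 DKO replicate 1 and 2, 311 with an offset of 64 and 1508 without the arrays lacking Xist signal.

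Signs turned only for differences that did not pass. Klf5 was 0.19 (Ovol1/2 DKO minus control) and 0.36 (Ovol1/2 DKO minus labelled Ovol1 KO) without the arrays lacking Xist signal, and ran from -0.41 to 0.19 and from -0.58 to 0.36 over single arrays left out. Between labelled Ovol1 KO and control, leaving out those 2 arrays gave -0.44 for Grhl1, -0.00830 for Grhl3, -0.096 for Klf4, -0.21 for Elf3, -0.11 for Ehf and -0.80 for Elf5, and quantile normalization gave 0.016 for Klf5. Leaving out single arrays there gave -0.21 to 1.55 for Grhl1, -0.61 to 0.0085 for Grhl2, -0.016 to 0.56 for Grhl3, -0.47 to 0.47 for Klf5, -0.14 to 0.84 for Elf3 and -0.20 to 1.30 for Elf5. In Ovol1/2 DKO minus control, Ovol2 was 0.60 without the arrays lacking Xist signal and ran from -0.80 to 0.60, and Csf1r from -0.78 to 0.16. The cause was not tested. Of the list counts recomputed for Ovol1/2 DKO minus control, 78 of 510 moved, 56 to fewer and 22 to more genes. A count was taken to move if it changed by over 1.5 times or went to or from no genes, so a single gene can be enough.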

Other observations

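Genes next to the factors in the RefSeq table were read on the same arrays, among the 2 protein-coding neighbours on each side. Of those that are not factors themselves, only Il22ra1 and Abtb2 passed limma in Ovol1/2 DKO against control, beside 2.02% of all genes. Beside Grhl3, the interleukin 22 receptor gene Il22ra1 fell in Ovol1/2 DKO, with 7.19 on average in Ovol1/2 DKO and 9.81 in control (-2.61, SE 0.39, limma adjusted p = 0.0280), while Ifnlr1 (-1.33, SE 0.28, limma adjusted p = 0.0834), Nipal3 (-1.78, SE 0.43, limma adjusted p = 0.131) and Stpg1 (-0.34, SE 0.26) did not pass. Il22ra1 lost the call without control replicate 2 or either Ovol1/2 DKO array, with differences of -2.86 to -2.36 over single arrays left out. Beside Elf5, Abtb2 fell (-2.25, SE 0.23, limma adjusted p = 0.00903), a call lost without Ovol1/2 DKO replicate 2 (-2.45 to -2.04 over single arrays left out), while Cat, the catalase gene between them, differed by 0.09 (SE 0.22) and did not pass. The neighbours of Grhl1 include another Krüppel-like gene, Klf11 (0.22, SE 0.25), and those of Klf5 include Klf12 (0.39, SE 0.28), neither of which passed.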
